A study of Mus musculus with 12 samples.

Results

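The 7 Wnt ligands (Wnt2, Wnt2b, Wnt4, Wnt5a, Wnt5b, Wnt10b and Wnt11) and 3 R-spondins (Rspo1, Rspo2 and Rspo3) were examined in single cells of the mouse mammary gland. The 10 genes, of 27998 in the expression matrices, were taken by their symbols. Each was read by fibroblast subset, in luminal cells and by library, and compared over hormone groups.

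Wnt ligands are lipid-modified secreted proteins that act on nearby cells through Frizzled receptors and the co-receptors Lrp5 and Lrp6, which stabilises β-catenin, or through Ror and Ryk receptors without β-catenin. R-spondins bind the receptors Lgr4, Lgr5 and Lgr6 and remove the ubiquitin ligases Rnf43 and Znrf3 from the cell surface, which raises the number of Frizzled receptors and the response to Wnt. In the mammary gland, Wnt4 is a known paracrine signal of hormone-sensing luminal cells downstream of progesterone, and Rspo1 is a known cooperating factor in stem cell renewal.

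The data comprise 12 libraries, each a group of its own, from dissociated mammary glands of female C57BL/6J mice aged 43 weeks. The Intact group received no 4-vinylcyclohexene diepoxide (VCD), a compound that destroys small ovarian follicles. All other groups received VCD at 160 mg/kg per day for 15 days and so lacked ovarian hormones. VCD_Vehicle received sesame oil, VCD_E2 received 17β-estradiol (E2) at 1 µg per animal per day for 1 week, VCD_E2_P4 received E2 with progesterone (P4) at 1 mg per animal per day, and VCD_E2_ICI received E2 with a single 5 mg dose of ICI, an estrogen receptor antagonist.

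The same 3 hormone conditions were crossed with polybrominated diphenyl ethers (PBDE), flame retardants given in the diet as 3 congeners. VCD_Low_PBDE, VCD_Low_E2 and VCD_Low_E2_P4 received 0.05, 0.0028 and 0.0063 mg/kg per day for 20 weeks. VCD_High_PBDE, VCD_High_PBDE_E2 and VCD_High_PBDE_E2_P4 received 1, 0.056 and 0.126 mg/kg per day for 1 week, so that dose and duration cannot be told apart. The other groups ate a matched diet with DMSO, and VCD_Vehicle_NormEnv was a further vehicle group with possible PBDE in its surroundings. The number of animals behind each library is not given in the sources used here, and a p-value therefore measures the spread between libraries.

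The libraries held 41737881 to 109224969 UMIs (unique molecular identifiers, each a counted transcript) and 1996 to 7570 cells that passed the filters, 46257 of 58620 barcodes in all. Codes of 2 kinds occurred in the deposited names, on 5 and 7 libraries. Pairs of libraries shared 95 to 185 cell barcodes within the first code (5 libraries), 2 to 84 within the second and 1 to 20 between codes.

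Cells were typed by markers. Of 30853 fibroblasts, 11416 were Fib_0-like (Dpp4, Pi16), 6612 Fib_1-like (Fabp4, Lpl), 3844 Fib_2-like (Mfap4, Tnc) and 3606 Fib_3-like (Gdf10, F3), while 5375 stayed ungated and 3084 lay within 0.1 of the score margin. The subset names are those of the study's own populations, rebuilt here from their markers. Luminal cells numbered 167, endothelial cells 146 and immune cells 6091. Of the gating markers, Dpp4 stood at 579 CPM (the gene's UMIs per 1000000 UMIs of the sum) in pooled Fib_0-like cells against 22.8 to 90.8 in the other subsets. Pooled Krt8 stood at 4144 CPM in luminal cells against at most 1.07 in the fibroblast subsets. Subset markers were not confined to fibroblasts, and the 7 Fib_3-like markers together reached 2841 CPM in a luminal sum. Candidate Schwann, basal, mural and muscle cells carried Col1a1 at 3949 to 4243 CPM, within the range of fibroblasts, and were not used. The kit counts the 3′ end once per transcript, so CPM needs no length correction between genes. In a sum over a library, fewer transcribing cells and less RNA per cell cannot be told apart.

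The sequences before the starts of Rspo1, Wnt4 and Wnt2 are shown because these genes carried the largest hormone response, the highest luminal level and the highest fibroblast level among the 10 genes. They were taken from the RefSeq promoter table (GRCm38.p6), limited to bases before the RefSeq and GENCODE starts, and capitals mark GC boxes (GGGCGG on either strand, which reads as CCGCCC when it lies on the other).
Rspo1, chr4:124986180-124986429, plus strand: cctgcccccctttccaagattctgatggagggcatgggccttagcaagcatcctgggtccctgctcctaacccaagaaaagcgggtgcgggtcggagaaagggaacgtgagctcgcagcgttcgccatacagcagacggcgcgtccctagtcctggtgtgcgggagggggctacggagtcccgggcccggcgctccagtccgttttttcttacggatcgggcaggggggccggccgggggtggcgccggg
Wnt4, chr4:137277385-137277488, plus strand: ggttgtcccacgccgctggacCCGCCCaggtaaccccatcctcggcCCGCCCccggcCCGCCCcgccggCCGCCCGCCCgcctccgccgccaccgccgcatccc
Wnt2, chr6:18030586-18030695, minus strand: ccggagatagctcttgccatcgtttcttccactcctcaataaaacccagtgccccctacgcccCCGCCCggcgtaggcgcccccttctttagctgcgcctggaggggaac

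The Rspo1 stretch was 66.8% GC and held no GC box, the Wnt4 stretch was 83.7% GC with 5 marked GC boxes, and the Wnt2 stretch was 62.7% GC with 1. Neither the core of the progesterone and glucocorticoid response element (AGAACA on either strand) nor that of the estrogen response element (GGTCA on either strand) occurred in the 250 bases before the RefSeq start of these 3 genes. Of 32851 promoters of 250 bases, 16.1% held the first, 35.2% the second and 32.7% a GC box. Of the other members with a promoter in the table, Wnt10b held GGTCA at 230 to 226 and at 73 to 69 bases before its start. Wnt5b has 3 promoters there, of which promoter 2 held GGTCA at 246 to 242 and AGAACA at 234 to 229 bases before its start, and promoter 3 held GGTCA at 121 to 117.

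Rspo1 lies on chromosome 4 at 124986430 to 125009099 and Wnt4 on the same chromosome at 137277489 to 137299726, both on the plus strand (GRCm38, GENCODE). Wnt2 lies on chromosome 6 at 17988940 to 18030585 and Wnt5b on chromosome 6 at 119432531 to 119544347, both on the minus strand. Wnt5a lies on chromosome 14 at 28504750 to 28527448 and Wnt11 on chromosome 7 at 98835112 to 98855195, both on the plus strand.

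The ligands divided between the cell types. Among the fibroblast subsets, Wnt2, Wnt10b, Wnt5b and Rspo3 were highest in Fib_0-like cells and Wnt5a and Rspo1 in Fib_3-like cells, while Wnt4 was highest in luminal cells. In the sum of 12 libraries, Wnt2, a canonical ligand, stood at 246 CPM in Fib_0-like cells and at 112, 46.5 and 38.7 CPM in Fib_2-like, Fib_3-like and Fib_1-like cells. Its levels in luminal (11.6 CPM), endothelial (11.4 CPM) and immune cells (5.09 CPM) were lower. Fib_0-like cells had the highest Wnt2 in 12 of 12 libraries, and their lowest library, at 170 CPM, stood above the highest sum of any other subset, 151 CPM.

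Wnt10b, a canonical ligand known to hold back fat cell formation, ranged from 5.31 to 13.4 CPM in Fib_0-like cells and reached at most 0.721 CPM in any sum of the other subsets. Wnt5b, a ligand that mainly acts without β-catenin, ranged from 9.33 to 21.4 CPM in Fib_0-like cells and reached at most 7.36 CPM in the other subsets. For both genes, as for Wnt2 and Rspo3, no library of another subset overlapped the Fib_0-like range, 4 of the 8 genes tested against 4.08% of 12745 genes tested. Of these, Wnt10b and Rspo3 passed the filter on low counts through the Fib_0-like sums. Wnt11, another ligand that mainly acts without β-catenin, was less restricted, at 60.9 CPM in Fib_0-like cells, at 40.4, 19.5 and 16.3 CPM in Fib_2-like, Fib_3-like and Fib_1-like cells and at 36.6 CPM in immune cells in the sum of 12 libraries. Fib_0-like cells had the highest Wnt11 of the 4 subsets in 11 of 12 libraries. The immune level ranged from 21.4 to 51.5 CPM over the 12 libraries, and in immune cells thinned to 5000 UMIs 8.49% (95% exact interval 7.64 to 9.41) held a Wnt11 UMI, against 25.8% of Fib_0-like cells. Wnt2, which was higher than Wnt11 in every fibroblast subset, was found in 1.91% of the same thinned immune cells.

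Wnt5a, the main ligand of the Ror receptors, ranged from 59.1 to 99.9 CPM in Fib_3-like, 36.3 to 71.1 in Fib_0-like, 13.9 to 40.9 in Fib_2-like and 10.0 to 28.6 in Fib_1-like cells. Fib_3-like cells had the highest level in 12 of 12 libraries, although their range overlapped that of Fib_0-like cells, and the ranges of Fib_2-like and Fib_1-like cells overlapped too. Luminal cells held 121 CPM of Wnt5a in the sum of 12 libraries. Wnt4 stood at 262 CPM in luminal cells and at 7.19, 2.73, 2.33 and 1.88 CPM in Fib_2-like, Fib_3-like, Fib_1-like and Fib_0-like cells. In cells thinned to 5000 UMIs, 39 of 72 luminal cells held a Wnt4 UMI (54.2%, exact interval 42.0 to 65.98), against 3.45% of Fib_2-like and 0.981% of Fib_1-like cells. Unthinned, the shares were 45.5% of luminal cells at a median of 3351 UMIs per cell and 5.98% of Fib_2-like cells at a median of 12782. Wnt4 was thus common in the luminal gate and rare in the fibroblasts, among which Fib_2-like cells had the highest level in 9 of 12 libraries.

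Of the R-spondins, Rspo3 was found in Fib_0-like and endothelial cells, at 14.1 and 42.3 CPM in the sum of 12 libraries, and at no more than 0.826 CPM in any sum of the other 3 fibroblast subsets. The endothelial value rests on 146 cells, of which 17.1% held a Rspo3 UMI. Rspo1 stood at 24.2 CPM in Fib_3-like, 11.9 in Fib_2-like, 7.72 in luminal, 3.37 in Fib_0-like and 1.01 in Fib_1-like cells, and Fib_3-like cells had the highest subset level in 10 of 12 libraries. This order is of sums over all hormone groups, and the Fib_2-like and luminal levels of Rspo1 lay under the Fib_0-like range (1.97 to 4.90 CPM) in some groups and above it in others. Rspo2 never exceeded 3.14 CPM in a fibroblast sum and had no UMI in luminal or endothelial cells. Wnt2b never exceeded 1.17 CPM in a fibroblast sum and had 3 UMIs in luminal cells. Most sums held few UMIs of these 2 genes, with the most for Rspo2 in Fib_0-like cells of VCD_E2 (46 UMIs) and VCD_Low_E2 (62 UMIs).

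**Figure D1:**
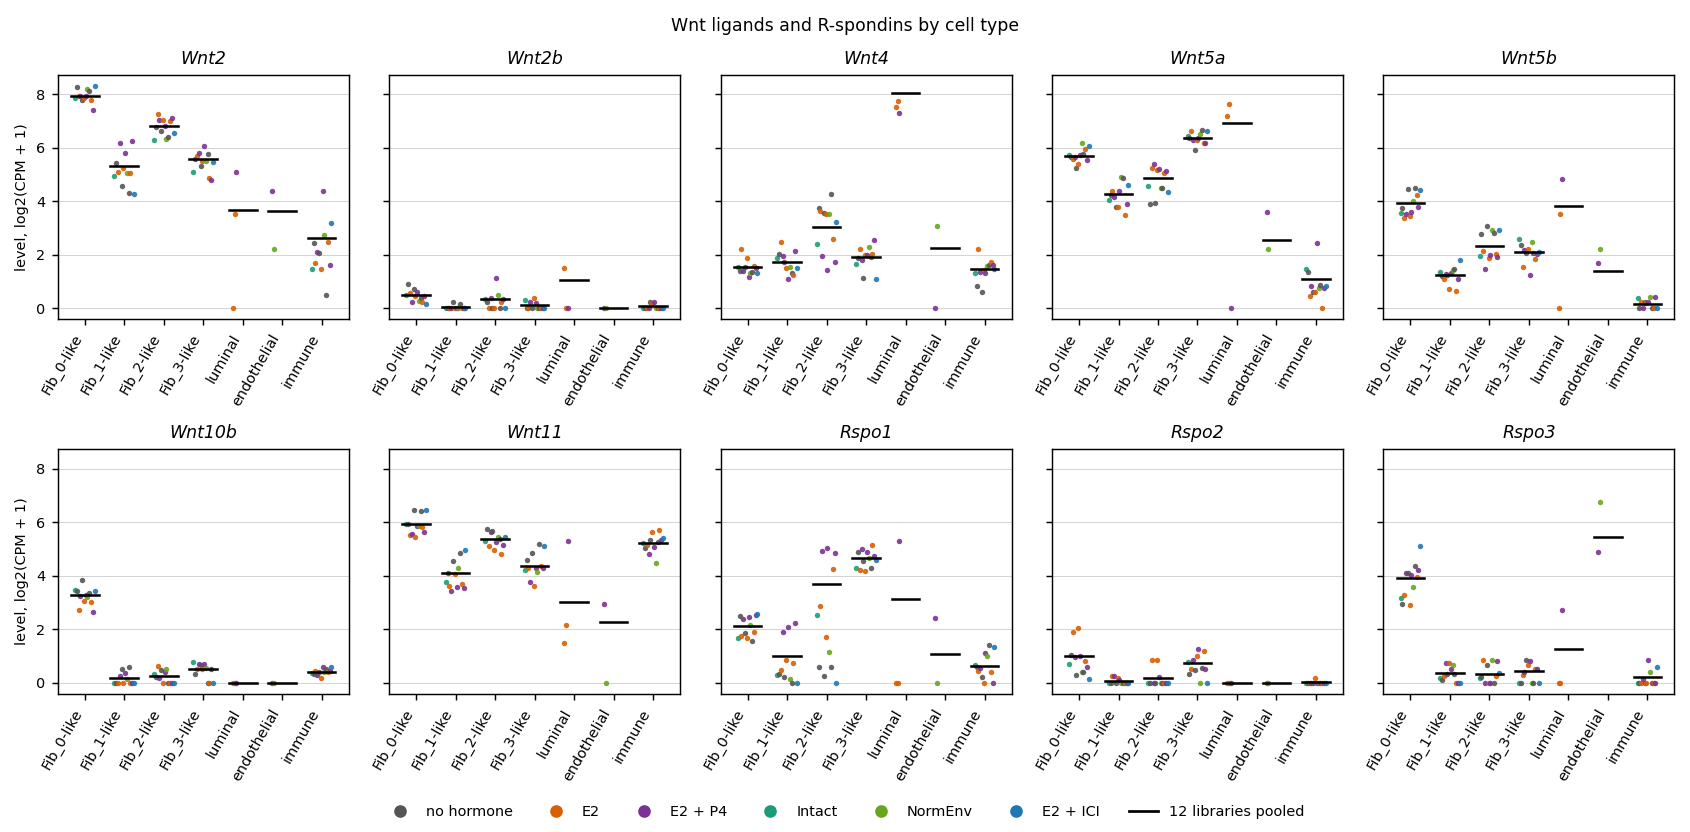
Level of each of the 10 genes, as log2(CPM + 1) of summed UMIs, by cell type. Points are libraries with at least 20 cells of the type and bars are the sums of all 12 libraries. Wnt2, Wnt10b and Wnt5b stand highest in Fib_0-like cells without overlap with other fibroblast subsets, Wnt4 is highest in luminal cells and Rspo3 in endothelial and Fib_0-like cells.

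The subsets were compared within libraries, each against the mean of the other 3, by edgeR's quasi-likelihood test with Benjamini-Hochberg adjustment over 12745 genes. Wnt2b and Rspo2 fell below the filter on low counts. Of the 8 genes tested, 6 were higher and 1 lower in Fib_0-like cells, where 71.6% of all genes tested were called (35.8% higher and 35.7% lower). The differences were 5.44 on the log2 scale for Rspo3 (SE 0.19, adjusted p = 1e-25), 5.21 for Wnt10b (SE 0.17, adjusted p = 8.1e-27), 2.43 for Wnt5b, 2.19 for Wnt2, 1.38 for Wnt11 and 0.60 for Wnt5a, and Wnt4 was lower by -0.91. Rspo3 and Wnt10b reached at most 0.826 and 0.721 CPM in any sum of the other subsets. They passed the filter on low counts through the Fib_0-like sums, and their fitted values depend on the prior count. Rspo1 had -0.72 (edgeR adjusted p = 0.051). The median of the 8 differences was 1.78, against -0.0101 over all genes.

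All 8 genes tested were lower in Fib_1-like cells, the subset with fat-handling markers, where 30.3% of all genes were called lower, 28.3% higher and 58.6% in either direction. Rspo1 differed by -3.38 (SE 0.42, adjusted p = 1.5e-08), Wnt10b by -2.61, Wnt5b by -2.07, Rspo3 by -1.85, Wnt2 by -1.53, Wnt5a by -1.44 and Wnt11 by -1.20, and the median of the 8 was -1.69 against -0.0113 over all genes. Wnt4 differed least, by -0.55 (edgeR adjusted p = 0.026), and its call was lost without VCD_Low_E2 (adjusted p = 0.067), VCD_Vehicle_NormEnv, VCD_High_PBDE or VCD_High_PBDE_E2, or when all cell types competed for a cell (0.21). That median was the lowest of the 4 subsets, although the fitted difference was lower for Wnt4 in Fib_0-like and for Rspo3 in Fib_2-like cells. Rspo3 rests on few UMIs there, with highest sums of 0.826 CPM in Fib_2-like and 0.659 CPM in Fib_1-like cells. Because each subset is set against the mean of the others, the differences of a gene are not independent between subsets. The lower values of Rspo3 and Wnt10b outside Fib_0-like cells thus carry their high Fib_0-like level.

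In Fib_2-like cells 4 genes were higher and 3 lower, against 60.1% of all genes called (30.01% higher and 30.1% lower). Wnt4 was higher by 1.60 (SE 0.20, adjusted p = 7.8e-09 by edgeR) and Rspo1 by 0.91 (SE 0.33, adjusted p = 0.018), with Wnt11 at 0.51 and Wnt2 at 0.47 (0.25 and adjusted p = 0.075 with no margin between subset scores). Rspo3, Wnt10b and Wnt5a were lower by -2.14, -2.15 and -0.72, and Wnt5b had -0.07 (adjusted p = 0.71). In Fib_3-like cells, where 49.1% of all genes were called (25.4% higher and 23.7% lower), Rspo1 was higher by 3.19 (SE 0.29, adjusted p = 1.8e-11) and Wnt5a by 1.55 (SE 0.10, adjusted p = 8.6e-16), while Rspo3, Wnt2 and Wnt11 were lower by -1.46, -1.12 and -0.68, of which the Rspo3 call was lost when all cell types competed (adjusted p = 0.076). Wnt4, Wnt5b and Wnt10b had differences of -0.14, -0.28 and -0.45 there and were not called. The median was 0.20 for Fib_2-like and -0.37 for Fib_3-like cells. The Fib_2-like difference of Rspo1 averages over hormone groups in which its level differed widely, and its call was lost without VCD_E2_P4 (adjusted p = 0.076), VCD_Low_E2_P4, VCD_High_PBDE_E2 or VCD_High_PBDE_E2_P4. It was also lost by DESeq2, where the Rspo1 difference was 0.34 (adjusted p = 0.49), and with no margin (0.53, adjusted p = 0.15).

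Among all genes of at least 20 CPM that were no subset markers, those with the pattern most like Wnt2 over the 48 sums of 12 libraries and 4 subsets were Islr (Pearson r = 0.946 on log2(CPM + 1)), Kif2a (r = 0.936) and Myh10 (r = 0.932). Those most like Wnt5a were Chrdl1 (r = 0.903), Lamb2 (r = 0.890) and Osr1 (r = 0.873), those most like Wnt11 were Qpct (r = 0.889), Pamr1 (r = 0.874) and Ntn4 (r = 0.866), and those most like Rspo1 were Dkk3 (r = 0.814), Atp5d and Vit (r = 0.763). Sums of the same library share its depth, so the coefficients are descriptions.

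Whether ovarian hormones change these ligands was read from the 9 VCD libraries that cross hormone (none, E2, E2 with P4) with PBDE (none, low, high). The test set E2 with or without P4 against no hormone with PBDE as a term. Values are listed in the order no, low and high PBDE. The largest responses were in Fib_2-like cells.

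Rspo1 was almost absent from Fib_2-like cells without hormone and present with it. It stood at 0.495, 0.194 and 0.495 CPM without hormone, at 6.32, 2.24 and 18.2 CPM with E2, and at 29.2, 31.5 and 28.1 CPM with E2 and P4. Every hormone library lay above every library without hormone, every E2 and P4 library lay above every E2 library, and the E2 libraries differed most among themselves. Over all genes tested, 26.8% had no overlap between the libraries with and without hormone. The UMIs behind these values were 3, 1 and 1 without hormone, 24, 11 and 102 with E2, and 203, 189 and 111 with E2 and P4. The share of Fib_2-like cells with a Rspo1 UMI was 0.485%, 0.215% and 0.532% without hormone, 5.5%, 3.38% and 15.3% with E2, and 32.5%, 20.9% and 30.1% with both hormones. These cells were not thinned, and their depth differed between the groups. The sums held 6059351 UMIs from 619 cells in VCD_Vehicle, 3795893 from 200 in VCD_E2 and 6960979 from 240 in VCD_E2_P4. The part of depth in these shares was not tested.

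The rate of Rspo1 UMIs in the summed Fib_2-like cells was 54.3 times higher with hormone than without (95% exact interval 23.2 to 168, 640 against 5 UMIs, counting error only). The fitted log2 difference was 5.15 (SE 0.91, adjusted p = 0.0081 by edgeR), a value that depends on the prior count because the libraries without hormone held so few UMIs. Rspo1 passed the filter on low counts through the hormone libraries. With the code in the deposited names as a term, or without VCD_Vehicle, the adjusted p was 0.053, without VCD_Low_PBDE it was 0.05 as rounded, and for E2 alone the difference was 4.21 (SE 1.08, adjusted p = 0.051). Within the first code, VCD_E2 and VCD_E2_P4 (6.32 and 29.2 CPM) lay above VCD_Vehicle and VCD_Low_PBDE (0.495 and 0.194 CPM), and within the second code the 4 hormone libraries (2.24 to 31.5 CPM) lay above VCD_High_PBDE (0.495 CPM).

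Wnt5a in Fib_2-like cells stood at 13.9, 14.3 and 21.3 CPM without hormone, at 37.1, 34.9 and 32.1 CPM with E2, and at 40.9, 36.0 and 33.7 CPM with E2 and P4. All 6 hormone libraries were above the 3 without, and the levels with and without P4 overlapped. Wnt5a rose by 1.12 on the log2 scale (SE 0.15, edgeR adjusted p = 0.00018). Wnt2 stood at 108, 96.3 and 84.2 CPM without hormone, at 151, 129 and 126 CPM with E2, and at 131, 111 and 138 CPM with E2 and P4. Its groups did not overlap either, with the smallest gap between VCD_Vehicle and VCD_Low_E2_P4. Wnt2 rose by 0.37 (SE 0.11, edgeR adjusted p = 0.018), and the call was lost without VCD_Vehicle (adjusted p = 0.062) or VCD_High_PBDE (adjusted p = 0.097).

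Wnt4 in Fib_2-like cells stood at 12.4, 10.8 and 18.3 CPM without hormone, at 11.3, 10.4 and 4.99 CPM with E2, and at 2.87, 1.67 and 2.28 CPM with E2 and P4. The E2 libraries overlapped those without hormone, and the 3 libraries with P4 were the lowest. Wnt4 fell by 1.62 on the log2 scale over both hormone conditions (SE 0.29, edgeR adjusted p = 0.0015), but for E2 alone the difference was -0.65 (SE 0.31, adjusted p = 0.18). Wnt5b stood at 5.78, 7.36 and 5.94 CPM without hormone and between 1.72 and 3.42 CPM in the 6 hormone libraries, without overlap. It fell by 1.31 (SE 0.26, edgeR adjusted p = 0.0024).

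Wnt11 in Fib_2-like cells stood at 53.3, 50.2 and 40.1 CPM without hormone, at 33.5, 30.0 and 27.1 CPM with E2, and at 49.0, 37.9 and 34.4 CPM with E2 and P4. The E2 libraries were the lowest, and those with P4 lay above them and overlapped the libraries without hormone. Wnt11 fell by 0.53 on the log2 scale (SE 0.10, edgeR adjusted p = 0.0019). In all, 6 of the 10 genes could be tested in Fib_2-like cells and 3 rose and 3 fell, where 32.5% of all 11788 genes tested were called (16.6% higher and 15.9% lower). Rspo1, among the 3 that rose, passed the filter on low counts through the hormone libraries. The median over the 6 was -0.0781, against -0.0189 over all genes, since the rises and falls offset each other. Wnt2b, Wnt10b, Rspo2 and Rspo3 were below the filter, each at no more than 1.17 CPM.

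**Figure D2:**
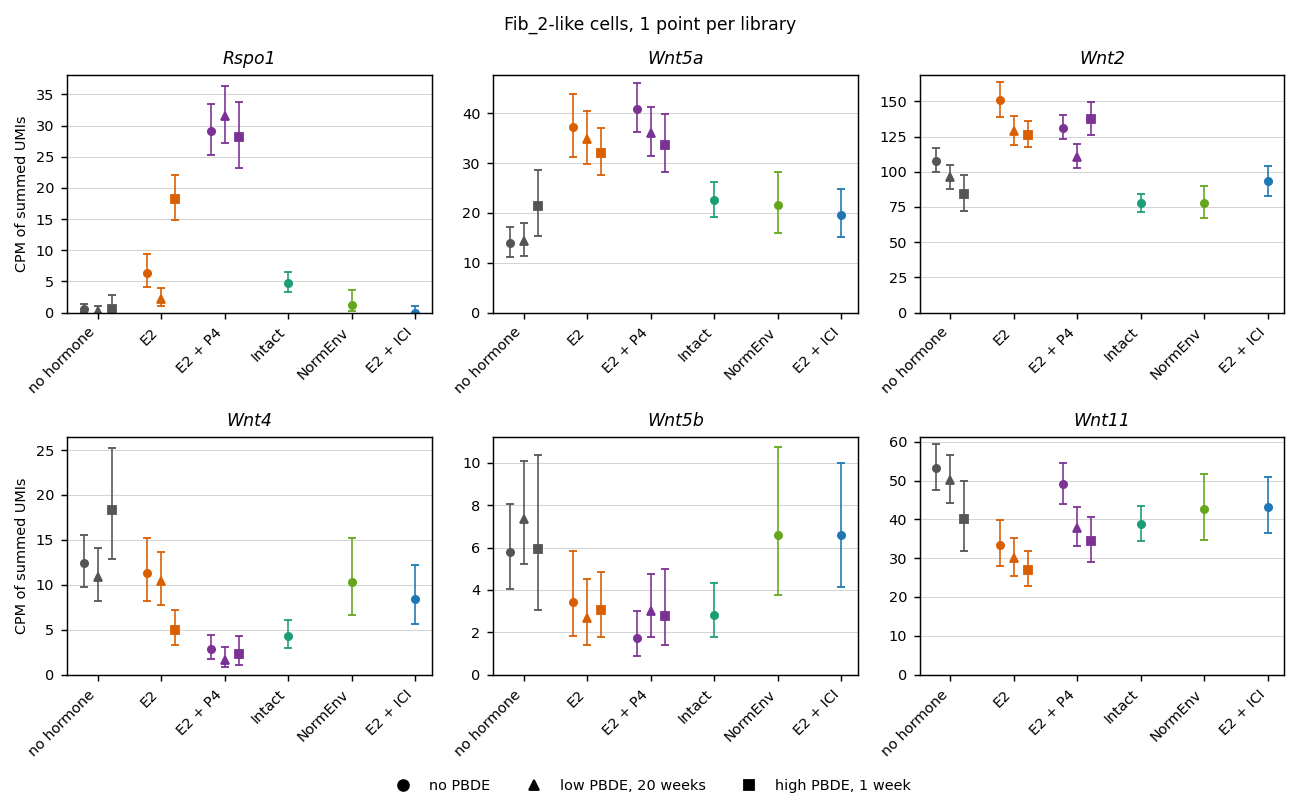
CPM of summed UMIs of 6 genes in Fib_2-like cells, 1 point per library with its exact 95% Poisson interval (counting error only), by hormone group and by the Intact, VCD_Vehicle_NormEnv and VCD_E2_ICI libraries. Colour marks the group and symbol shape the PBDE level. Rspo1 lies at no more than 0.495 CPM in the 3 libraries without hormone and between 28.1 and 31.5 CPM with E2 and P4, while Wnt4 is lowest in the 3 libraries with P4.

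Marker sums of Fib_2-like cells moved with the same groups. The 7 Fib_1-like markers together stood at 1680 to 1987 CPM without hormone, 2640 to 3200 with E2 and 3052 to 3464 with E2 and P4, and the 7 Fib_2-like markers at 3078 to 3411, 2421 to 2834 and 2243 to 2558 CPM. The Fib_3-like markers, of the subset with the most Rspo1, stood at 487 to 632, 426 to 598 and 346 to 396 CPM and were not higher with hormone. The part of these shifts in the 6 results was not tested, and with a stricter margin of 0.6 between subset scores the directions held and the Wnt2 call was lost (0.23, adjusted p = 0.17). Estrogen receptor transcripts (Esr1) stood at 19.8 CPM and progesterone receptor transcripts (Pgr) at 1.02 CPM in the pooled Fib_2-like cells, against 80.8 and 19.4 CPM in Fib_0-like cells.

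In Fib_0-like cells all 10 genes passed the filter, and 2 of them fell while none rose, against 10.8% of 12853 genes called (5.66% higher and 5.17% lower). Wnt11 stood at 59.8, 86.9 and 85.8 CPM without hormone, at 44.6, 43.1 and 56.1 CPM with E2, and at 46.7, 57.3 and 48.6 CPM with E2 and P4. The groups with and without hormone did not overlap, as for 13.2% of all genes, and Wnt11 fell by 0.66 on the log2 scale (SE 0.11, edgeR adjusted p = 0.013). With the code as a term the Wnt11 call was lost (-0.54, adjusted p = 0.079), as it was without VCD_Low_PBDE (0.08) or VCD_High_PBDE (0.06). Wnt10b stood at 9.69, 13.4 and 9.15 CPM without hormone and between 5.31 and 8.73 CPM with it, and fell by 0.61 (SE 0.16, edgeR adjusted p = 0.042). That call was lost in 9 of 20 alternatives (adjusted p up to 0.23), among them the code as a term, E2 alone and the omission of any library of the layout except VCD_E2_P4 and VCD_High_PBDE_E2.

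Of the other genes in Fib_0-like cells, Wnt5b ranged from 12.4 to 21.4 CPM without hormone and from 9.33 to 17.9 CPM with it, with overlap (log2 difference -0.64, SE 0.17, edgeR adjusted p = 0.053), and was called by DESeq2. Rspo2 stood at 1.08, 0.219 and 0.307 CPM without hormone, at 2.70, 3.14 and 0.751 CPM with E2, and at 0.951, 1.01 and 0.502 CPM with both. The log2 difference of Rspo2 was 1.48 over both hormone conditions (SE 0.46, edgeR adjusted p = 0.073) and 2.13 for E2 alone (SE 0.49, adjusted p = 0.043), a gene of few UMIs. Rspo3 stood at 6.61, 16.2 and 19.6 CPM without hormone, at 8.75, 6.59 and 14.4 CPM with E2, and at 16.1, 15.4 and 17.4 CPM with both, so that the VCD_Vehicle library alone was low in its group (adjusted p = 0.77). Wnt2, the most abundant of the 10, differed by -0.27 (SE 0.11, adjusted p = 0.15), and Wnt2b, Wnt4, Rspo1 and Wnt5a by -0.82, 0.23, 0.12 and 0.09, with adjusted p from 0.25 to 0.79. In Fib_0-like cells the 7 Fib_3-like markers stood at 118 to 199, 198 to 311 and 297 to 385 CPM without hormone, with E2 and with both, and the 7 Fib_1-like markers at 275 to 377, 348 to 429 and 437 to 502 CPM, and their part in these results was not tested. The median of the 10 was -0.21 against -0.00389 over all genes.

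In Fib_1-like cells 6 genes were tested, of which 1 rose and 1 fell, against 12.02% of 12220 genes called (6.75% higher and 5.27% lower). Rspo1 stood at 0.257, 0.166 and 0 CPM without hormone, at 0.410, 0.791 and 0.687 CPM with E2, and at 2.70, 3.21 and 3.73 CPM with E2 and P4. The 3 groups did not overlap, at levels far under those of Fib_2-like cells (13.1% of all genes had no overlap with and without hormone, and 20.9% none with and without P4). Rspo1 rose by 3.00 on the log2 scale (SE 0.58, edgeR adjusted p = 0.0083), and the ratio of UMI rates was 12.3 (exact interval 5.09 to 38.6, 103 against 5 UMIs). As in Fib_2-like cells, the gene passed the filter through the hormone libraries and the fitted value depends on the prior count. For E2 alone the fitted difference was 1.84 (edgeR adjusted p = 0.21), and the call was also lost with the code as a term (adjusted p = 0.055) or without VCD_Low_PBDE (0.05 as rounded). Wnt11 stood at 16.2, 22.8 and 27.9 CPM without hormone, at 11.4, 15.8 and 12.1 CPM with E2, and at 9.76, 11.0 and 10.6 CPM with both. These 3 groups did not overlap either, and Wnt11 fell by 0.94 (SE 0.13, edgeR adjusted p = 0.0016).

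Wnt2 in Fib_1-like cells stood at 41.6, 22.6 and 18.8 CPM without hormone, at 32.9, 36.8 and 32.0 CPM with E2, and at 71.7, 54.4 and 75.5 CPM with E2 and P4. The 3 libraries with P4 were the highest, but the edgeR adjusted p was 0.077 for hormone and 0.13 for P4. DESeq2 called Wnt2 in both comparisons. Wnt5b, Wnt5a and Wnt4 had differences of -0.49, -0.30 and -0.07 with hormone and adjusted p from 0.37 to 0.92. The 7 Fib_1-like markers stood at 7247 to 8420 CPM without hormone, 10863 to 12185 with E2 and 8846 to 12159 with both. In the same order, the 7 Fib_2-like markers stood at 639 to 804, 747 to 1105 and 842 to 1050 CPM. The 7 Fib_3-like markers stood at 475 to 657, 376 to 578 and 338 to 432 CPM. The part of these shifts in the Rspo1, Wnt11 and Wnt2 values was not tested. The median over the 6 genes was -0.19 against -0.00753 over all genes.

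In Fib_3-like cells, where Rspo1 and Wnt5a were highest without hormone, neither was called. Rspo1 stood at 28.9, 22.8 and 18.5 CPM without hormone, at 17.7, 17.0 and 34.9 CPM with E2, and at 31.3, 29.0 and 25.6 CPM with both, which overlapped (log2 difference 0.12, edgeR adjusted p = 0.84). Wnt11 was the only 1 of the 6 genes tested that was called, against 3.62% of 11483 genes (2.41% higher and 1.21% lower). It stood at 22.9, 27.9 and 35.3 CPM without hormone and between 11.4 and 19.6 CPM in the 6 hormone libraries, without overlap as for 8.92% of all genes, and fell by 0.73 (SE 0.17, edgeR adjusted p = 0.031). The call was lost in 11 of 20 alternatives, including the code as a term (-0.64, adjusted p = 0.25), DESeq2, E2 alone and the omission of VCD_Vehicle, VCD_E2_P4, VCD_Low_PBDE (adjusted p = 0.26), VCD_Low_E2, VCD_High_PBDE or VCD_High_PBDE_E2_P4. Wnt4, Wnt5b, Wnt5a and Wnt2 had differences of 0.69, -0.32, 0.09 and 0.04 with adjusted p from 0.32 to 0.95. The 7 Fib_1-like markers stood at 2291 to 2382, 1743 to 2071 and 1827 to 2019 CPM in Fib_3-like cells, lower with hormone without overlap, and their part in the Wnt11 value was not tested. The median over the 6 was 0.0653 against -0.00816 over all genes.

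Wnt11 was thus called lower with hormone in each of the 4 subsets, as were 0.173% of the 10989 genes tested in all of them. The Fib_0-like and Fib_3-like calls were lost with the code as a term, and in Fib_2-like cells the libraries with P4 overlapped those without hormone.

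**Figure D3:**
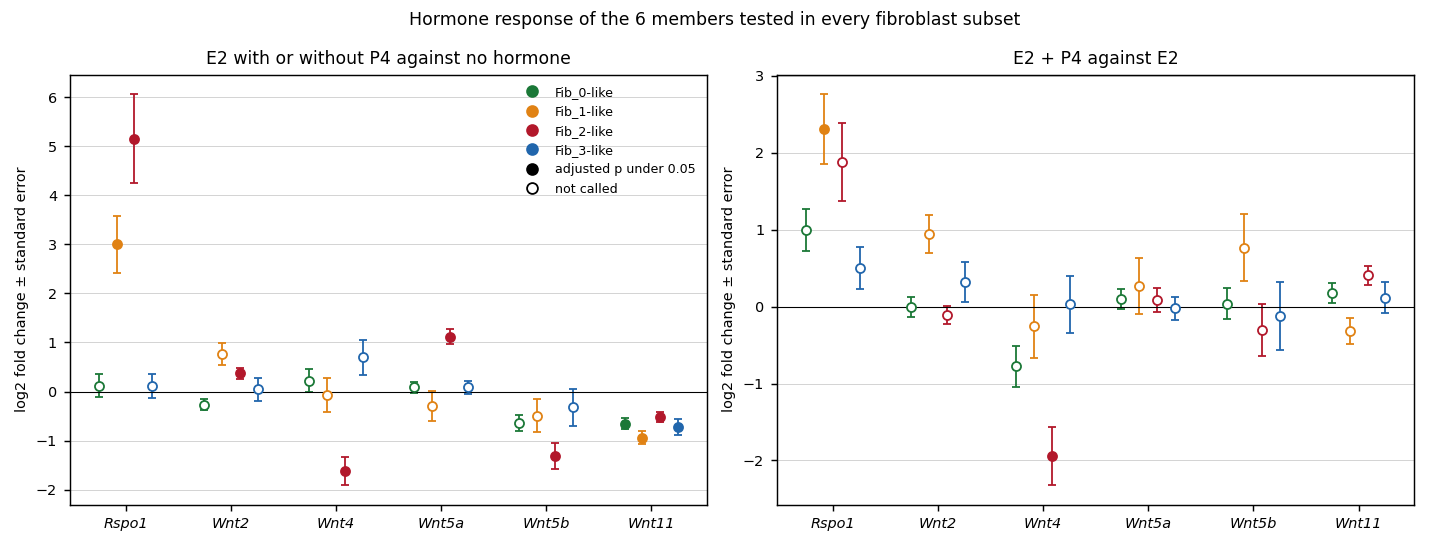
Fitted log2 fold change with its standard error for the 6 genes tested in every fibroblast subset, for E2 with or without P4 against no hormone and for P4 added to E2. Filled symbols passed the adjusted p threshold of 0.05. Wnt11 lies below 0 in all 4 subsets with hormone, and Rspo1 lies near 0 in Fib_0-like and Fib_3-like cells and at 5.15 in Fib_2-like cells.

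The hormone difference itself was compared between subsets by an interaction term, each subset minus the mean of the other 3, over 13017 genes. For Rspo1 it was larger in Fib_2-like cells by 4.28 (SE 0.72, edgeR adjusted p = 5e-05) and smaller in Fib_0-like and Fib_3-like cells by -2.73 and -2.66. Wnt5a was larger in Fib_2-like cells by 1.14 (SE 0.19, edgeR adjusted p = 8.6e-05), and Wnt4 was smaller there by -1.89 (SE 0.30, edgeR adjusted p = 2.3e-05). Of 9 genes tested, 4 differed in Fib_2-like cells, against 27.3% of all genes, 2 in Fib_0-like (17.1%), 1 in Fib_1-like (3.096%) and 1 in Fib_3-like cells (3.82%). Rspo2, Rspo3 and Wnt10b, among the 9, had few UMIs outside Fib_0-like cells, so the test could decide little for them. Wnt11 was called in none of these comparisons, with differences from -0.29 to 0.21 on the log2 scale.

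Adding P4 to E2 was compared in the same fits. In Fib_2-like cells Wnt4 fell by 1.94 on the log2 scale (SE 0.38, edgeR adjusted p = 0.025), 1 call among the 6 genes tested against 2.98% of all genes (1.82% lower). Leaving out any of the hormone libraries except VCD_High_PBDE_E2 took the Wnt4 call above the threshold, up to an adjusted p of 0.14, with the difference from -1.64 to -2.11 on those occasions. Rspo1 was higher in each library with P4, at 3.11 times the UMI rate (exact interval 2.57 to 3.78, counting error only), but the fitted difference of 1.88 (SE 0.51) had an edgeR adjusted p of 0.14. DESeq2 called both genes. Wnt11 had 0.41 (edgeR adjusted p = 0.096), and Wnt2, Wnt5b and Wnt5a had -0.11, -0.30 and 0.09. Non-overlapping groups occurred in 19.9% of all genes in this comparison.

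Rspo1 in Fib_1-like cells passed the filter through the libraries with P4, where it had 29, 46 and 13 UMIs against 0 to 6 in the other libraries of the layout. There it rose by 2.31 with P4 (SE 0.45, edgeR adjusted p = 0.037), 1 of 6 genes against 1.702% of all genes (1.09% higher), at 5.06 times the UMI rate (exact interval 2.91 to 9.42, 88 against 15 UMIs). This call was lost in 13 of 19 alternatives, including each of VCD_E2, VCD_E2_P4, VCD_Low_PBDE, VCD_Low_E2, VCD_Low_E2_P4, VCD_High_PBDE_E2 and VCD_High_PBDE_E2_P4 left out in turn (adjusted p 0.057 to 0.21). Wnt5b, Wnt11, Wnt5a and Wnt4 had 0.77, -0.32, 0.27 and -0.26 there, with adjusted p from 0.35 to 0.79. No gene of the 10 was called for P4 in Fib_0-like cells by edgeR or DESeq2, where 4 had an unadjusted p under 0.05 and 0.0778% of all genes were called. Those were Rspo1 (0.99, SE 0.27, edgeR adjusted p = 0.31), Wnt4 (-0.78), Rspo3 (0.88) and Rspo2 (-1.30), while Wnt10b, Wnt11, Wnt2b, Wnt5a, Wnt5b and Wnt2 had 0.26, 0.18, 0.10, 0.10, 0.04 and -0.01. None of the 6 tested was called in Fib_3-like cells by either tool, with 0 at an unadjusted p under 0.05 and 0.113% of all genes called. The differences there ran from -0.12 for Wnt5b to 0.50 for Rspo1, with Wnt2 at 0.33, Wnt11 at 0.12, Wnt4 at 0.03 and Wnt5a at -0.02.

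PBDE was compared as low against none and high against none across hormone levels. All 3 libraries of the layout without PBDE carried the first code and all 3 with high PBDE the second, so in the direct comparison high PBDE and the code cannot be told apart. No member was called in any subset by edgeR or DESeq2, and the smallest edgeR adjusted p was 0.15. For low PBDE, 2 genes had an unadjusted p under 0.05, both in Fib_1-like cells (Wnt4 and Wnt11), with at most 0.00818% of all genes called in any subset. For high PBDE they were Wnt5b and Rspo2 in Fib_0-like, Wnt4 in Fib_1-like and Wnt11 in Fib_2-like cells, with 0.179%, 0.655%, 0.127% and 0.453% of all genes called in Fib_0-like to Fib_3-like cells.

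The 3 libraries outside the layout were set beside it without a test. In Fib_2-like cells of the Intact library, whose mice received no VCD, Rspo1 stood at 4.73 CPM (exact 95% interval 3.29 to 6.58), within the range of the E2 libraries. Wnt4 stood at 4.32 CPM (2.96 to 6.10), under every library without hormone, and Wnt5b at 2.84 CPM (1.76 to 4.34), within the hormone range. Wnt5a stood at 22.6 CPM (19.3 to 26.3), near the libraries without hormone (13.9 to 21.3 CPM) and under every hormone library (32.1 to 40.9 CPM). Wnt11, at 38.8 CPM, lay under every library without hormone and within the hormone range. Wnt2 in the same library, at 77.5 CPM, lay under all 9 libraries of the layout.

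In the VCD_E2_ICI library, where E2 was given with its receptor antagonist, Rspo1 had 0 UMIs in 274 Fib_2-like cells, which allows up to 0.901 CPM (3 UMIs), against 6.32 CPM in VCD_E2. Wnt5a (19.5 CPM), Wnt5b (6.61 CPM) and Wnt11 (43.3 CPM) lay within the ranges without hormone. Wnt4 (8.41 CPM) lay under its range without hormone and within that of the E2 libraries. VCD_Vehicle_NormEnv, with 3 Rspo1 UMIs in 209 cells (1.24 CPM, 0.256 to 3.62), stood at 10.3 CPM of Wnt4, just under the layout's libraries without hormone. Its Wnt5b, at 6.61 CPM, lay within their range, and its Wnt5a, at 21.5 CPM, just above it.

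Luminal cells were few, 2 to 42 per library. Of the 167, 105 had more hormone-sensing than alveolar markers detected, 34 had more alveolar markers and 28 had equal numbers of both, none included. Wnt4 was found in all 3 classes at 266, 221 and 294 CPM, and in 59 of the 105 hormone-sensing cells. The classes rest on detected markers at a median of 3351 UMIs per cell and were not clean. Pgr stood at 58.2 CPM and Esr1 at 37.8 CPM in alveolar cells, against 140 and 57.3 CPM in hormone-sensing cells. Elf5, an alveolar marker, was better separated, at 169 against 5.05 CPM in the same order. Whether cells of the alveolar lineage carry Wnt4 was thus not tested. Wnt5a was at 136 CPM in hormone-sensing cells (29 of 105 with a UMI) and at 34.9 CPM in alveolar cells, where all 12 UMIs came from 1 cell. Wnt5b was at 66.9 CPM in alveolar cells (exact interval 42.4 to 100), at 46.4 CPM in cells with equal numbers (17.0 to 101) and at 3.37 CPM in hormone-sensing cells (1.45 to 6.64). Of the 37 luminal Wnt5b UMIs, 9 came from 1 cell.

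By library, luminal Wnt4 stood at 238, 330 and 282 CPM without hormone, at 184, 213 and 488 CPM with E2, and at 152 and 154 CPM with E2 and P4 in the 2 libraries with at least 5 cells. The highest value, in VCD_High_PBDE_E2, came from 137 UMIs of which 118 were in 1 of 7 cells. Wnt5a stood at 67.9, 5.23 and 25.6 CPM without hormone, at 143, 198 and 428 CPM with E2, and at 14.1 and 0 CPM with E2 and P4. The E2 libraries were the highest and those with P4 were low, and in VCD_High_PBDE_E2 1 cell gave 92 of the 120 UMIs. Of the 5465 luminal genes tested, 35.4% had no overlap between the E2 libraries and the 2 with P4. Rspo1 stood at 0, 2.62 and 0 CPM without hormone, at 0, 0 and 3.56 CPM with E2, and at 36.5 and 38.6 CPM with E2 and P4. It was thus seen almost only with P4, in 3 of 17 and 5 of 23 cells.

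**Figure D4:**
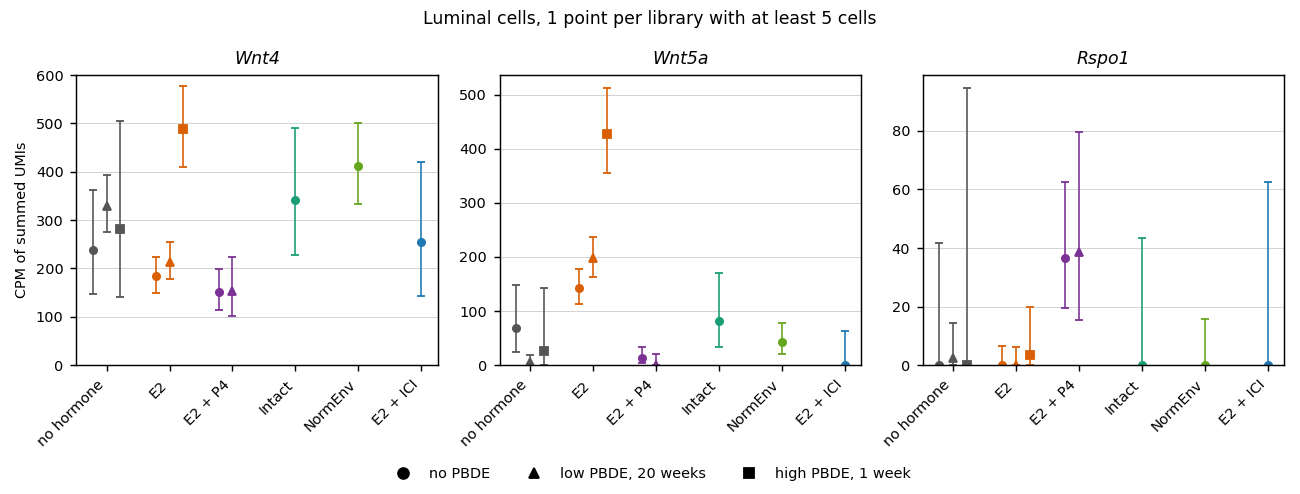
CPM of summed UMIs of Wnt4, Wnt5a and Rspo1 in luminal cells, 1 point per library with at least 5 cells and its exact 95% Poisson interval (counting error only), by hormone group. Rspo1 lies at 36.5 and 38.6 CPM in the 2 libraries with P4 and at no more than 3.56 CPM in the others, and Wnt5a is highest in the 3 E2 libraries.

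For the fit the VCD_High_PBDE_E2_P4 library, with 2 luminal cells, was left out, which leaves 8 libraries and 4 of the 10 genes above the filter among 5465. With E2 or E2 and P4 against no hormone no member was called by edgeR or DESeq2, 0 had an unadjusted p under 0.05, and 3.77% of all genes were called. Wnt4 differed by -0.41 (edgeR adjusted p = 0.59) and Wnt5a by 1.11 (adjusted p = 0.72), and Rspo1 and Wnt2 had 1.49 and -0.01 (adjusted p = 0.85 and 1). With P4 added to E2 Rspo1 rose by 5.83 on the log2 scale (SE 1.57, edgeR adjusted p = 0.036), 1 of 4 genes against 3.77% of all genes (1.45% higher), and the ratio of UMI rates was 52.1 with an exact interval of 8.34 to 2161 from 20 against 1 UMIs. The gene entered the test through the 2 libraries with P4, the fitted value depends on the prior count, and 8 of the 13 UMIs of VCD_E2_P4 came from 1 cell. Rspo1 fell below the filter without the cells of most UMIs or without VCD_E2_P4, and its call was lost without VCD_Vehicle (adjusted p = 0.055), VCD_E2 (0.37), VCD_Low_E2 (0.075) or VCD_Low_E2_P4 (0.15). Wnt5a differed by -4.27 with P4 (SE 0.94, edgeR adjusted p = 0.065), and DESeq2 called it, while Wnt4 and Wnt2 had -0.53 and 0.97 (adjusted p = 0.55 and 0.80).

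Other markers moved with the luminal groups as well, in the same 8 libraries. The 6 hormone-sensing markers together stood at 3868 to 5216 CPM without hormone, 3395 to 5899 with E2 and 2680 to 3725 with E2 and P4, and the 6 fibroblast markers at 226 to 1812, 283 to 2598 and 292 to 6413 CPM, with Pdgfra at 0 by the gate. The 6 luminal markers stood at 17300 to 19915, 17560 to 20322 and 7748 to 13112 CPM, and the 7 Fib_2-like markers at 10.5 to 25.6, 5.41 to 14.3 and 93.7 to 95.6 CPM, so that the libraries with P4 stood apart in both. In Fib_2-like cells with E2 and P4 the latter stood at 2243 to 2558 CPM beside 28.1 to 31.5 CPM of Rspo1. The 6 alveolar markers stood at 994 to 2613, 196 to 706 and 976 to 2086 CPM. Of the 22 luminal Rspo1 UMIs, 13 were in 4 alveolar cells and 9 in 6 hormone-sensing cells. The part of these shifts in the Rspo1 and Wnt5a values was not tested.

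The wider pathway was read from 4 lists. Of 13 other Wnt ligands and R-spondins, 5 could be tested in Fib_2-like cells, of which 1 rose and 1 fell with hormone, against 32.5% of all genes called (16.6% higher and 15.9% lower). Wnt9b, a ligand known from kidney development, stood at 0, 0.194 and 0.495 CPM without hormone, at 2.37, 1.22 and 5.88 CPM with E2 and at 3.16, 3.50 and 8.10 CPM with both. Its UMI rate was 26.1 times higher with hormone (exact interval 7.07 to 218, 123 against 2 UMIs) and the fitted difference was 4.11 (SE 0.63, edgeR adjusted p = 0.0004), for a gene that passed the filter through the hormone libraries and whose fitted value depends on the prior count. Wnt16 fell by 1.52 (SE 0.48, adjusted p = 0.041), with overlapping groups of 4.26 to 9.08 CPM and 0.263 to 8.19 CPM. With P4 added to E2, Wnt9a was higher by 0.78 (SE 0.17, edgeR adjusted p = 0.031), 1 of the 5 tested against 2.98% of all genes. It stood at 15.7, 17.6 and 15.8 CPM without hormone, at 11.3, 9.79 and 12.1 CPM with E2 and at 22.55, 17.35 and 17.7 CPM with both. The E2 libraries were the lowest, and those with both overlapped the libraries without hormone. Against the other subsets, 4 of 6 tested ligands of the list were higher in Fib_2-like cells and 0 lower, where 30.01% and 30.1% of all genes were. They were Wnt10a by 6.16, Wnt6 by 4.02, Wnt9b by 3.22 and Wnt9a by 1.17 on the log2 scale. Wnt10a reached at most 0.733 CPM in any sum of the other subsets and passed the filter on low counts through the Fib_2-like sums. The fitted values of Wnt10a and Wnt9b depend on the prior count, and that of Wnt9b averages over hormone groups of unlike level.

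Of 19 receptors and co-receptors, 16 were tested in Fib_2-like cells, of which 7 rose and 1 fell with hormone, against the same 32.5% of all genes. Lgr5, an R-spondin receptor and Wnt target, stood at 43.7, 41.6 and 41.6 CPM without hormone, at 1.58, 3.47 and 6.95 CPM with E2 and at 1.15, 0.334 and 1.01 CPM with both. Every hormone library was far under every library without hormone, and Lgr5 fell by 4.58 on the log2 scale (SE 0.28, edgeR adjusted p = 3.7e-06), the opposite direction to Rspo1 in the same cells. It stood at 16.8 CPM in the Intact, 15.7 in the VCD_Vehicle_NormEnv and 28.5 in the VCD_E2_ICI library. Fzd1, a Frizzled receptor, rose by 1.08 (SE 0.13, adjusted p = 7.6e-05), from 66.5 to 92.1 CPM without hormone to 155 to 201 CPM with it. Ror2, a receptor for Wnt5a, rose by 0.80 (SE 0.14, adjusted p = 0.00093) and Fzd3 by 1.25 (SE 0.22, adjusted p = 0.0012). The median over the 16 was 0.109 against -0.0189 over all genes.

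Of 5 genes of secretion and turnover, 3 were tested and Wls, the carrier that brings Wnt proteins to the cell surface, rose by 0.33 (SE 0.11, edgeR adjusted p = 0.039). Of 9 target and feedback genes, 7 were tested, of which 1 rose and 3 fell, against 16.6% and 15.9% of all genes. Axin2, the β-catenin target most used as a readout, stood at 24.1, 25.6 and 16.8 CPM without hormone, at 9.75, 10.2 and 14.4 CPM with E2 and at 13.1, 7.34 and 9.62 CPM with both, without overlap, and fell by 1.15 (SE 0.21, edgeR adjusted p = 0.0016). Outside the layout Axin2 stood at 17.2 CPM in the Intact, 14.05 in the VCD_Vehicle_NormEnv and 14.7 in the VCD_E2_ICI library, of which VCD_Vehicle_NormEnv, without hormone, lay within the hormone range. Myc fell by 0.90 over both hormone conditions (SE 0.14, edgeR adjusted p = 0.00059) and was lower by 0.72 with P4 added to E2 (SE 0.17, edgeR adjusted p = 0.043). These Myc values share the libraries with P4 and do not add up. Apcdd1, an inhibitor of the pathway, fell by 1.42 (adjusted p = 0.02) and Tcf7, a transcription factor of the pathway, rose by 1.14 (adjusted p = 0.013). The median over the 7 was -0.41 against -0.0189 over all genes. By the interaction term, the hormone differences of Lgr5 (-3.48), Axin2 (-0.93) and Myc (-0.67) were lower and that of Fzd1 (0.98) was higher in Fib_2-like cells than in the mean of the other subsets.

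**Figure D5:**
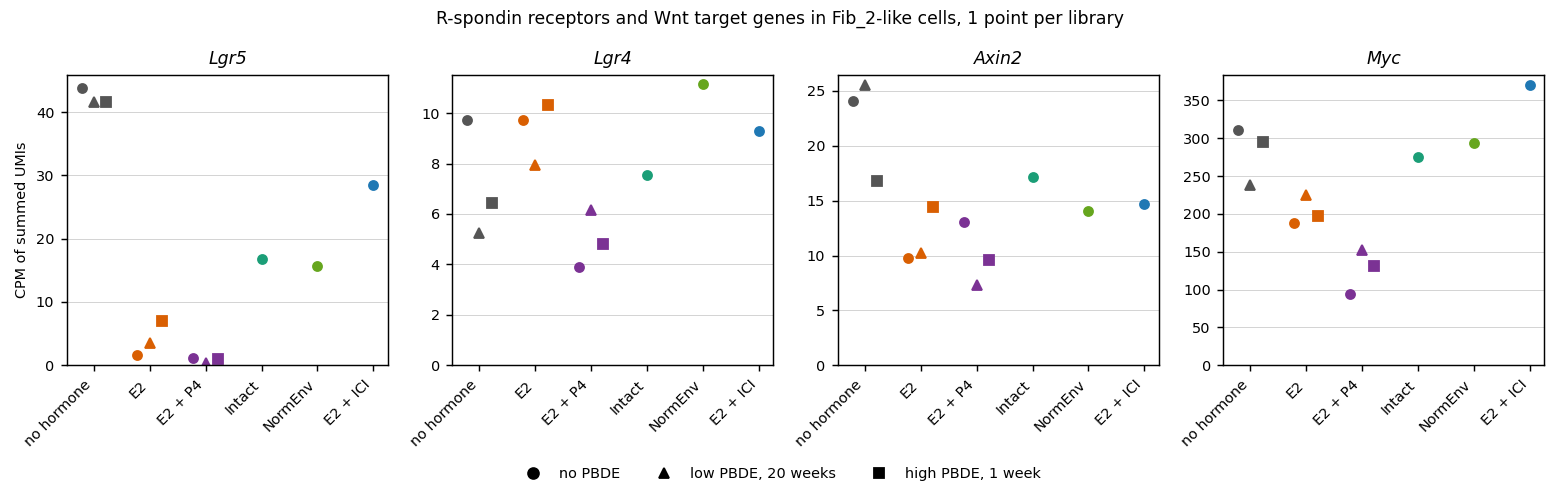
CPM of summed UMIs of the R-spondin receptors Lgr5 and Lgr4 and the target genes Axin2 and Myc in Fib_2-like cells, 1 point per library, without intervals. Lgr5 lies at 41.6 to 43.7 CPM in the 3 libraries without hormone and at 0.334 to 6.95 CPM in the 6 with hormone, and Axin2 lies at 16.8 to 25.6 and 7.34 to 14.4 CPM.

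Of all genes, 10.8% were called with hormone in Fib_0-like, 12.02% in Fib_1-like and 3.62% in Fib_3-like cells. Among the pathway genes, Fib_0-like cells had lower Wnt1 (-0.84, edgeR adjusted p = 0.016), Fzd8 (-0.94, adjusted p = 0.0067) and Nkd2 (-0.84, adjusted p = 0.02) and higher Fzd4 (0.47, adjusted p = 0.016). Tested there were 3 other ligands, 15 receptors, 3 genes of secretion and turnover and 6 target genes. Fib_1-like cells had higher Ror2 (1.14, edgeR adjusted p = 0.0019), Ptk7 (1.89, adjusted p = 0.015) and Fzd2 (0.36, adjusted p = 0.029). They were 3 of 14 receptors tested, while no gene was called of 5 other ligands, 3 genes of secretion and turnover and 5 target genes. With P4 added to E2, Fzd2 differed by 0.59 (edgeR adjusted p = 0.029), 1 of 14 receptors tested against 1.702% of all genes, from the same libraries with P4. It stood at 24.5 to 30.4 CPM without hormone, at 23.7 to 35.7 CPM with E2, which overlapped, and at 39.4 to 50.4 CPM with both. Fib_3-like cells had higher Lgr4 (0.82, edgeR adjusted p = 0.016) and lower Nkd2 (-1.13, adjusted p = 0.013). There, 3 other ligands, 14 receptors, 3 genes of secretion and turnover and 5 target genes were tested. With the code as a term, the calls were lost of Wnt1, Fzd4 and Nkd2 in Fib_0-like, Ptk7 and Fzd2 (for hormone) in Fib_1-like, Wnt16, Tcf7 and Apcdd1 in Fib_2-like and both genes in Fib_3-like cells, at adjusted p from 0.052 to 0.19. Their differences kept their sign, at -0.84, 0.53 and -0.83, then 2.05 and 0.41, then -1.75, 1.15 and -1.55, then 0.65 for Lgr4 and -0.97 for Nkd2. With high PBDE, Ccnd1 was lower in Fib_3-like cells (-1.72, SE 0.19, edgeR adjusted p = 0.0017), at 8.59 to 9.15 CPM against 24.1 to 38.8 CPM without PBDE. It was 1 call among 5 target genes tested, where 0.453% of all genes were called. Ccnd1 stood at 19.6 and 15.4 CPM in VCD_Vehicle_NormEnv and VCD_E2_ICI, which carry the second code and no PBDE in the diet, and with the code as a term it had -1.91 (adjusted p = 0.058).

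On luminal cells the receptors with the highest pooled levels were Ryk (107 CPM), Lrp6 (41.1 CPM), Lrp5 (33.0 CPM) and Fzd6 (18.96 CPM), and Lgr4 stood at 14.4 CPM. Of the other ligands there, Wnt7b stood at 32.3 CPM. Of 2 target genes tested in luminal cells, Ccnd1 rose with P4 (1.52, SE 0.38, edgeR adjusted p = 0.022), against 3.77% of all genes called (1.45% higher).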

How the data were processed

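The authors deposited, for each of 12 libraries, a matrix of UMI counts per gene and cell (10x Chromium 3′ chemistry), made per the labels with Cell Ranger 3.1.0 on mm10. The labels name a HiSeq and the study's methods a NovaSeq. Every deposited column of counts was used, and 0 columns of other samples were set aside.

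Barcodes were kept at 5% or less of mitochondrial UMIs, 1000 or more UMIs and 500 or more genes. A cell took the type with the highest mean scaled marker level among types with at least 3 of 6 markers detected. This reading of the gate was chosen after seeing the cell counts, and the alternative in which all types compete was added. Fibroblasts lacked any UMI of Cspg4, Pecam1, Cd52, Ptprc, Krt14 and Epcam, and took the subset with the highest score of 7 markers by a margin of 0.3. No doublet caller was run, and an alternative left out the cells with the most UMIs (0.8% per 1000 barcodes).

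Counts were summed per library and cell type, since cells are not replicates, and tested with edgeR 4.0.16 (quasi-likelihood, TMM, filterByExpr, Benjamini-Hochberg over all genes, threshold 0.05) in R 4.3.3. Hormone and PBDE were additive terms over 9 libraries, which leaves 4 residual degrees of freedom and lets PBDE levels stand as replicates of a hormone level. Subsets were compared with the library as a block. DESeq2 1.42.0, other normalization, filters, gates, the code in the deposited names and the omission of each library were the alternatives. Intervals cover counting error only. Scripts were tested on simulated data. Python 3.11.15, numpy 2.4.6, scipy 1.17.1 and pandas 2.3.3 were used.

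The rule named all 10 members in every comparison, and of each pathway list up to 4 called genes with the smallest adjusted p. For PBDE and the difference between subsets only members with a call or a small unadjusted p are given, and for the subset comparisons the lists other than the ligands in Fib_2-like cells are not given. For the libraries outside the layout some members are not given, among them Wnt2 in VCD_E2_ICI and VCD_Vehicle_NormEnv. The members, markers and lists were chosen with earlier results of these data known.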

Additional observations from a re-analysis of the deposited data

Results flagged for a closer look

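The difference between libraries with and without hormone was not the same in the 4 fibroblast subsets for 5 of the 9 genes tested (Wnt2b was below the filter), by the interaction test of edgeR with Benjamini-Hochberg adjustment over all genes. Among the 9, Rspo2, Rspo3 and Wnt10b reached at most 1.39, 0.826 and 0.721 CPM outside Fib_0-like cells, so the test could decide little for them. Of all genes, 27.3% were called for Fib_2-like, 17.1% for Fib_0-like, 3.82% for Fib_3-like and 3.096% for Fib_1-like cells. Each value is the log2 difference with hormone in 1 subset minus the mean of the other 3. For Rspo1 it was 4.28 in Fib_2-like, -2.73 in Fib_0-like (adjusted p = 1e-05) and -2.66 in Fib_3-like cells (adjusted p = 7.3e-05). These 3 values share the same sums and are not independent of each other. Each passed the threshold in all 17 alternatives tried, but all rest on 5 Rspo1 UMIs without hormone in Fib_2-like and 5 in Fib_1-like cells, so that their size depends on the prior count, and the hormone calls within those subsets were lost in 4 and 3 of their own alternatives. For Wnt4 it was -1.89 and for Wnt5a 1.14 in Fib_2-like cells, and both passed in all 17 alternatives too. The code as a term, the addition of VCD_Vehicle_NormEnv and E2 alone were not among these 17. Within Fib_2-like cells the Wnt4 difference for E2 alone was -0.65 (SE 0.31, edgeR adjusted p = 0.18).

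The other 3 differences were less stable. Wnt2 in Fib_0-like cells had -0.68 (adjusted p = 0.032) and lost its call in 6 of 17 alternatives, among them the omission of VCD_E2, VCD_E2_P4, VCD_Low_PBDE, VCD_Low_E2 or VCD_High_PBDE (adjusted p up to 0.12). Wnt5a in Fib_1-like cells had -0.70 (adjusted p = 0.022) and lost it in 8 of 17, and Wnt5b in Fib_2-like cells had -0.90 (adjusted p = 0.042) and lost it in 8 of 17. Both lost it without VCD_Vehicle, VCD_E2_P4, VCD_Low_PBDE, VCD_Low_E2, VCD_High_PBDE or VCD_High_PBDE_E2_P4, at adjusted p values up to 0.18 for Wnt5a and 0.17 for Wnt5b. No alternative turned the sign of any of the 8.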

How the results depend on the processing

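Of 949 alternatives to 49 called gene results, 858 kept the direction and the call, 91 kept the direction and lost the call, and 0 reversed. Settings in which the gene fell below the filter are not among the 949, as for luminal Rspo1 without the cells of most UMIs or without VCD_E2_P4. Counts of the 10 genes called moved as follows. With E2 or E2 and P4, Fib_0-like cells had 2 calls, 4 with VCD_Vehicle_NormEnv added, 0 with the code in the deposited names as a term and 0 to 3 with a library left out. Fib_1-like cells had 2, 1 with the code, 1 for E2 alone and 1 to 3 with a library left out, and Fib_2-like cells had 6 and then 4 to 6. Fib_3-like cells had 1, and 0 by DESeq2, with all types competing, with VCD_Vehicle_NormEnv, with the code or for E2 alone, and 0 to 1 with a library left out. For P4, Fib_1-like cells had 1, then 2 by DESeq2, 0 with a 10% mitochondrial limit, without the cells of most UMIs, with all types competing, with no margin, with a margin of 0.6 or with the code, and 0 to 2 with a library left out. Fib_2-like cells had 1, then 2 by DESeq2 and 0 to 2, and Fib_3-like cells 0, then 0 to 1. High PBDE gave 0 in Fib_3-like cells, then 0 to 1. The difference between subsets gave 2 in Fib_0-like cells (1 without the filter, 1 to 3 with a library left out), 1 in Fib_1-like cells (2 by DESeq2, 0 with the 10% limit or no margin, 0 to 1 with a library left out), 4 in Fib_2-like cells (then 3 to 4) and 1 in Fib_3-like cells (2 without the cells of most UMIs). Luminal P4 gave 1, then 2 by DESeq2, without the filter, with VCD_Vehicle_NormEnv or with the code, 0 without the cells of most UMIs, and 1 to 2 with a library left out. Over all genes, calls with hormone ranged over the alternatives from 275 to 1761 in Fib_0-like (1392 as reported), 683 to 1893 in Fib_1-like (1469), 2481 to 4106 in Fib_2-like (3832) and 65 to 634 in Fib_3-like cells (416), and for P4 from 0 to 125 (10), 16 to 345 (208), 47 to 593 (351) and 0 to 68 (13). For high PBDE they ranged from 1 to 316 (23), 0 to 205 (80), 0 to 142 (15) and 2 to 191 (52), for low PBDE from 0 to 11 in any subset, and in luminal cells from 17 to 414 (206) for hormone and 8 to 518 (206) for P4. The difference between subsets ranged from 1033 to 2520 in Fib_0-like (2222), 116 to 601 in Fib_1-like (403) and 113 to 638 in Fib_3-like cells (497). The cause of these shifts was not tested. Depth limits luminal and endothelial cells, whose sums held 6045 to 581087 and 1118 to 454018 UMIs, and the Rspo1 levels without hormone. No paired analysis was possible because each group is 1 library and the labels give no replicate number that ties libraries of different groups. Subsets of the same library were compared with the library as a block.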
